A study of Mus musculus with 12 samples.

Results

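The enzymes and cofactors that write, keep and erase DNA methylation were followed through 4 passages of a mouse melanoma. The group held 9 genes, picked by symbol from the 34436 genes of the deposited table: Dnmt1, Uhrf1 and Hells, which maintain methylation, Dnmt3a, Dnmt3b and Dnmt3l, which establish it, and the erasers Tet1, Tet2 and Tet3. The material was YUMM1.7, a mouse melanoma line with a Braf mutation, grown as tumours and moved from host to host. Syngeneic mice carried the first tumours (F0), and the labels then list F1 and F2, followed by N2.1, N2.2 and N2.3, then Balb-c1 with Balb/c-2, and last CBA. Polyadenylated RNA of bulk tumours was sequenced at 4 of these passages, with 3 tumours (A, B and C) each of F0, of N2.1, of Balb/c-2 and of CBA. Every group thus shares the line and the growth in mice, and no cultured cells were among the samples used here. The labels give no age or sex of the hosts. The 3 tumours of a group come from the same passage, so p-values of comparisons between passages rest on the spread between tumours of a passage. No p-value measures the spread between repeated series of passages. Permutation p-values of correlations, and slopes fitted without passage means, pool tumours of different passages and so also hold differences between passages.

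In mammals, methyl groups on CpG cytosines are copied to the new DNA strand at each replication by DNMT1, which UHRF1 brings to hemimethylated sites and the remodeller HELLS helps through compact chromatin. DNMT3A and DNMT3B place methylation on unmethylated DNA, helped in germ cells by DNMT3L, which has no catalytic activity of its own. The TET enzymes oxidise methylcytosine, which leads to its loss. Endogenous retroviruses of the ERVK class and germline genes such as Rhox5 are known targets of methylation-dependent silencing, and loss of that silencing is often read from their RNA.

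Depth lay between 34721735 and 59404254 reads per tumour. Values are normalised read counts as deposited, in which 1 read was worth between 0.827 and 1.25, and levels of different genes are compared only per kilobase of merged exons. Per the library names, 7 tumours ran on a first flow cell, namely every F0 and N2.1 tumour with tumour A of Balb/c-2, and the other 5 ran on a second. The melanoma label has weak backing in the pigment genes. Of 6 melanocyte markers, Dct, Tyr and Mlana had values between 0 and 7.44 in every tumour, Pmel lay between 12.5 and 59.6 and Sox10 between 0.954 and 178, while Mitf lay between 318 and 1290. Fewer cells of a type and less RNA per cell cannot be told apart in bulk tumours.

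All 9 genes passed the filter on low values (at least 10 in at least 3 tumours), as did 17491 genes in all. Per kilobase, the mean level over the 12 tumours was 1029 for Uhrf1, 821 for Dnmt1, 272 for Hells, 104 for Tet3, 93.2 for Dnmt3a, 40.8 for Tet2, 20.04 for Dnmt3l, 16.0 for Dnmt3b and 4.81 for Tet1. The maintenance genes therefore stood at the top and Tet1 at the bottom. Genes on the opposite strand overlap Dnmt3a (Dnmt3aos), Dnmt3b (Dnmt3bos), Dnmt3l (Aire), Tet2 (Gm42567) and Tet3 (B230319C09Rik), and since the strand setting is not given, reads of each pair cannot be told apart. Annotated genes on the same strand overlap Dnmt1 (1 gene) and Tet1 (2 genes). Tet3 overlaps 3 genes in all, 1 of them on the opposite strand.

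**Figure D1:**
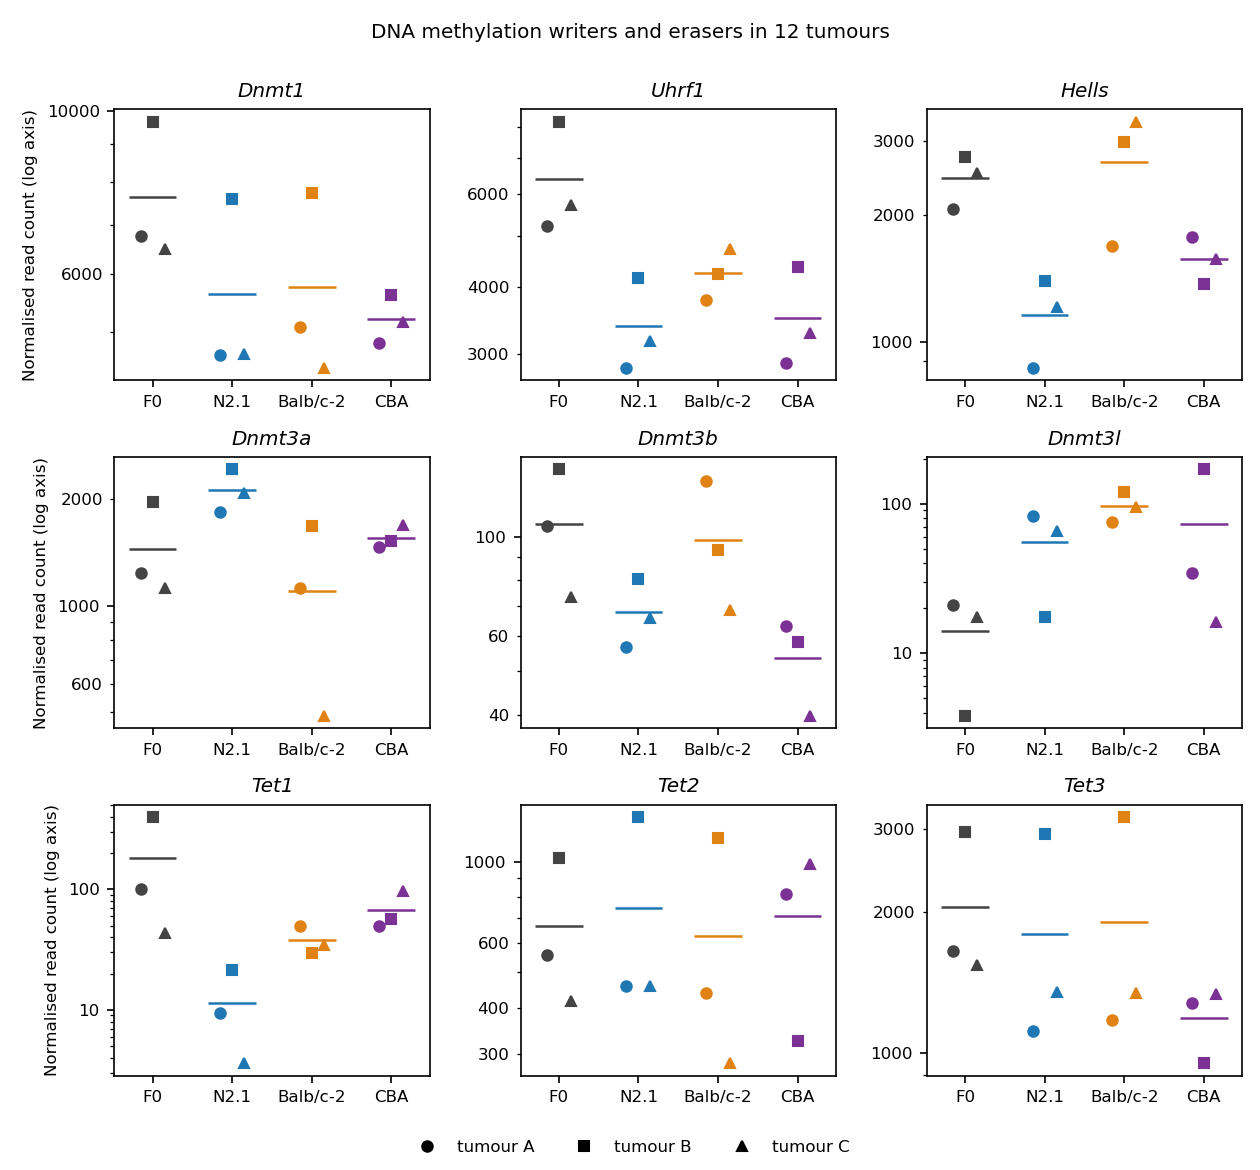
Normalised read count (log axis, its own range in each panel) of the 9 genes in each tumour of the 4 passages; circles, squares and triangles are tumours A, B and C, and lines are means. All 3 N2.1 tumours sit below all 3 F0 tumours in Uhrf1, Hells and Tet1, and the B tumours of F0, N2.1 and Balb/c-2 stand high in Dnmt1, Tet2 and Tet3.

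N2.1 against F0 asks what had changed in this machinery by the first sequenced passage after F0, and it was the comparison in which members passed the test. Tet1, Hells and Uhrf1 fell, and the other 6 were not called. All 6 tumours of this comparison were on the first flow cell. In limma over all 17491 genes, 3 of the 9 members passed an adjusted p of 0.05 (Benjamini-Hochberg), all 3 of them lower in N2.1, where 7.91% of all genes passed and 2.9% passed as lower. The median log2 change was -0.45 over the 9 members and -0.02 over all genes tested, and 3 members had a positive and 6 a negative change. Groups did not overlap for these 3 members, and for 38.2% of all genes.

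Uhrf1, the reader of hemimethylated CpGs (ENSMUSG00000001228, chr17:56303321-56323486, plus strand, mm10), had 2823, 4169 and 3171 normalised read counts in the N2.1 tumours A to C, against 5226, 8185 and 5722 in the F0 tumours A to C. Every N2.1 tumour lay below every F0 tumour, and the B tumour was the highest of both groups. The mean was 3388 ± 699 in N2.1 and 6378 ± 1585 in F0 (SD, n = 3 tumours each), a log2 change of -0.90 ± 0.24 (SE, limma adjusted p = 0.0435).

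Hells, a chromatin remodeller of the SNF2 family needed for normal methylation in mice (ENSMUSG00000025001, chr19:38930915-38971051, plus strand), had 868, 1392 and 1211 in the N2.1 tumours A to C, against 2066, 2742 and 2513 in the F0 tumours A to C. The groups were again apart, with N2.1 A lowest. The log2 change was -1.09 ± 0.28 (SE, limma adjusted p = 0.0373).

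Tet1, the eraser best known from embryonic stem cells (ENSMUSG00000047146, chr10:62804570-62908996, minus strand), had 9.46, 21.4 and 3.61 in the N2.1 tumours A to C, against 99.9, 398 and 43.4 in the F0 tumours A to C. These N2.1 values rest on 10, 21 and 4 reads, while F0 A, B and C had 90, 417 and 45 reads. All N2.1 tumours lay below all F0 tumours, and F0 B stood far above the rest. The log2 change of Tet1 was -3.56 ± 0.76 (SE, limma adjusted p = 0.0181), the largest change of any member in any of the 6 comparisons.

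The third maintenance gene, Dnmt1, the copying methyltransferase (ENSMUSG00000004099, chr9:20907209-20959888, minus strand), had 4648, 7590 and 4662 in the N2.1 tumours A to C, against 6749, 9657 and 6486 in the F0 tumours A to C. N2.1 B lay above F0 A and C, so the groups overlapped. Its log2 change of -0.45 ± 0.27 (SE) had a limma adjusted p of 0.369.

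The calls depended on the tumours included. The number of members called was 0 without F0 B, N2.1 A or N2.1 C, 1 (Tet1) without F0 A or F0 C, and 3 without N2.1 B. The log2 changes in these fits were -1.06 to -0.71 for Uhrf1, -1.24 to -0.90 for Hells and -4.29 to -2.70 for Tet1. The labels do not pair tumours of different passages. With the letter nevertheless taken as a replicate block in a limma fit of F0 and N2.1 alone, 6 members were called, beside 30.9% of all genes. These were Uhrf1, Hells and Tet1, with Dnmt1 (adjusted p = 0.0155) lower and Dnmt3a (adjusted p = 0.0194) and Dnmt3l (adjusted p = 0.0134) higher.

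**Figure D2:**
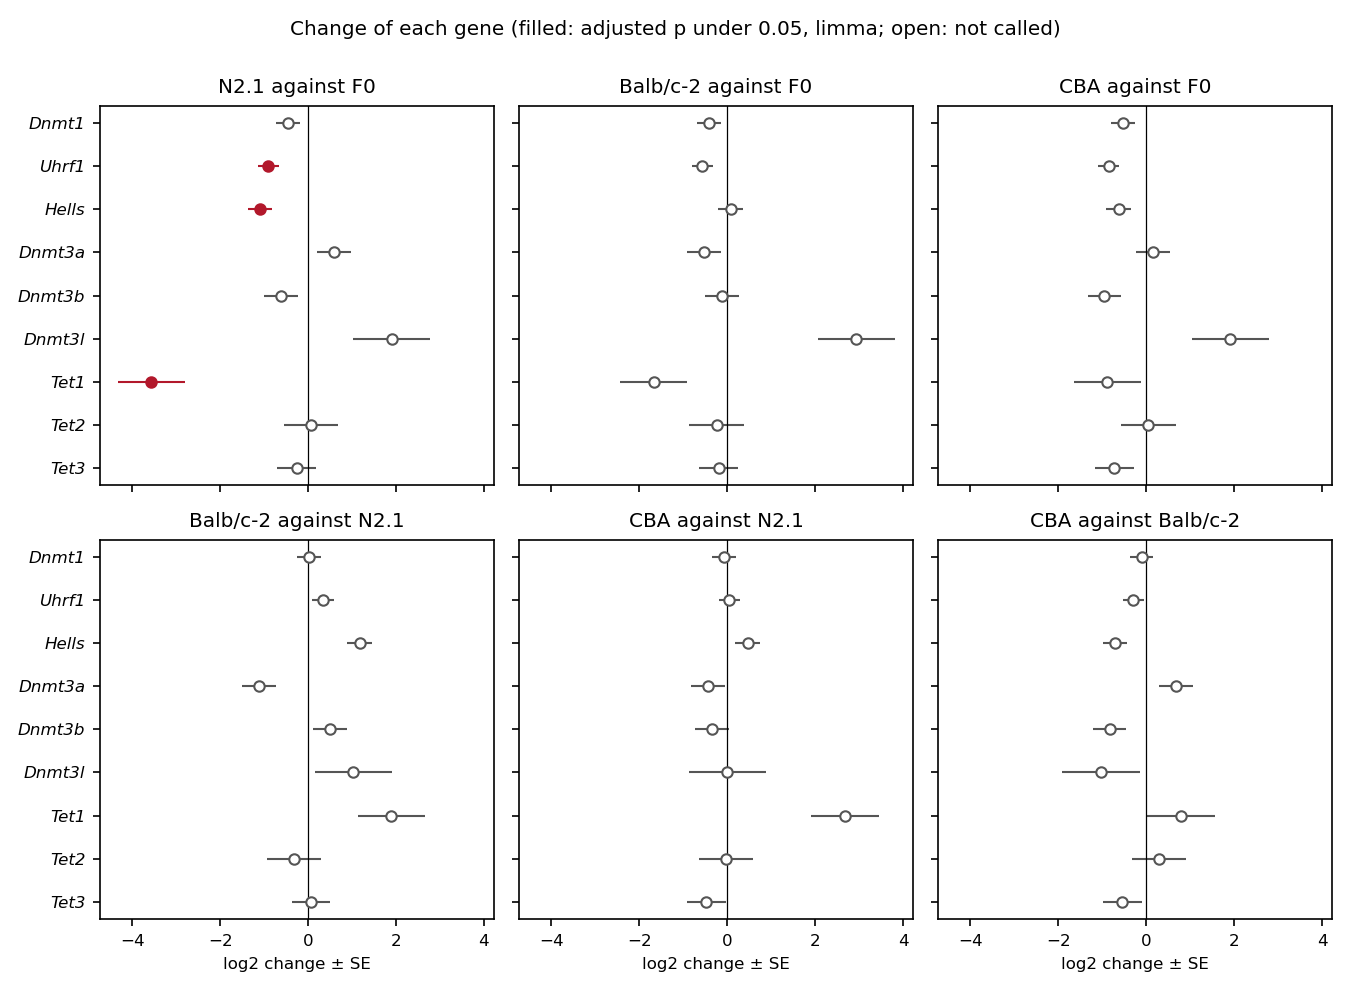
log2 change of each gene with its SE in the 6 comparisons, from limma on log2(value + 1); filled red points passed an adjusted p of 0.05 and open points did not. Only N2.1 against F0 holds filled points, at -0.90 for Uhrf1, -1.09 for Hells and -3.56 for Tet1.

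The fall of Uhrf1 and Hells went with that of replication genes. In a list of 26 S phase and proliferation genes, limma called 8 as lower and 0 as higher in N2.1 against F0. Of all genes, 7.91% were called and 2.9% were called as lower. The list's median log2 change was -0.71, beside -0.02 for all genes. Ccnb1, the mitotic cyclin, had 1930 ± 844 in N2.1 and 5286 ± 1318 in F0 (log2 change -1.52 ± 0.36, limma adjusted p = 0.0251). Tk1, thymidine kinase, had 1871 ± 91.8 in N2.1 and 4717 ± 826 in F0 (log2 change -1.32 ± 0.35, adjusted p = 0.0393), and Ccna2, the cyclin of S phase, had a log2 change of -1.22 ± 0.28 (adjusted p = 0.0236). Mcm6, a subunit of the replicative helicase singled out after its values were seen, had 3856 ± 431 in N2.1 and 8923 ± 1502 in F0 (log2 change -1.20 ± 0.22, adjusted p = 0.00852). Mcm6 was called under all 20 alternative settings, and the other 7 missed the threshold in 3 to 9 of them. In CBA against F0 limma called 1 gene of this list (Mcm4, lower) beside 5.04% of all genes, with 15 of 26 at an unadjusted p under 0.05, 5 called by DESeq2 and a median log2 change of -0.68. In Balb/c-2 against F0 it called 1 (E2f1, lower) beside 3.51%, with 3 at an unadjusted p under 0.05, 1 called by DESeq2 and a median of -0.43. In Balb/c-2 against N2.1, CBA against N2.1 and CBA against the Balb/c-2 tumours it called 0, where 8, 2 and 3 had an unadjusted p under 0.05, edgeR called 0, 1 and 0 and DESeq2 called 2, 1 and 0.

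The mean log2 level of that list was 10.83, 11.15 and 10.92 in the N2.1 tumours A to C, against 11.54, 11.92 and 11.73 in the F0 tumours A to C. Among the other tumours it was 11.20, 11.26 and 11.68 in the Balb/c-2 tumours A to C, and 10.90, 11.35 and 11.02 in the CBA tumours A to C. F0 B was the highest and N2.1 A the lowest of all 12 tumours in this list, as they also were in Uhrf1. The summed level of 7 macrophage markers was between 141096 and 155831 in N2.1 and between 89058 and 100086 in F0, and that of 7 T cell markers between 4576 and 6330 in N2.1 and between 136 and 2252 in F0, with none of either list at 0. Of these 14 markers limma called 1, Cd8a, as higher in N2.1, and single macrophage markers differed in direction: Mrc1 had 4860, 7372 and 6387 in the N2.1 tumours A to C, against 8248, 7558 and 11721 in the F0 tumours A to C. The summed B and plasma cell markers overlapped, at 230 to 724 in N2.1 and 131 to 991 in F0. The part of cell composition and of proliferation in the lower Uhrf1 and Hells was not tested.

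**Figure D3:**
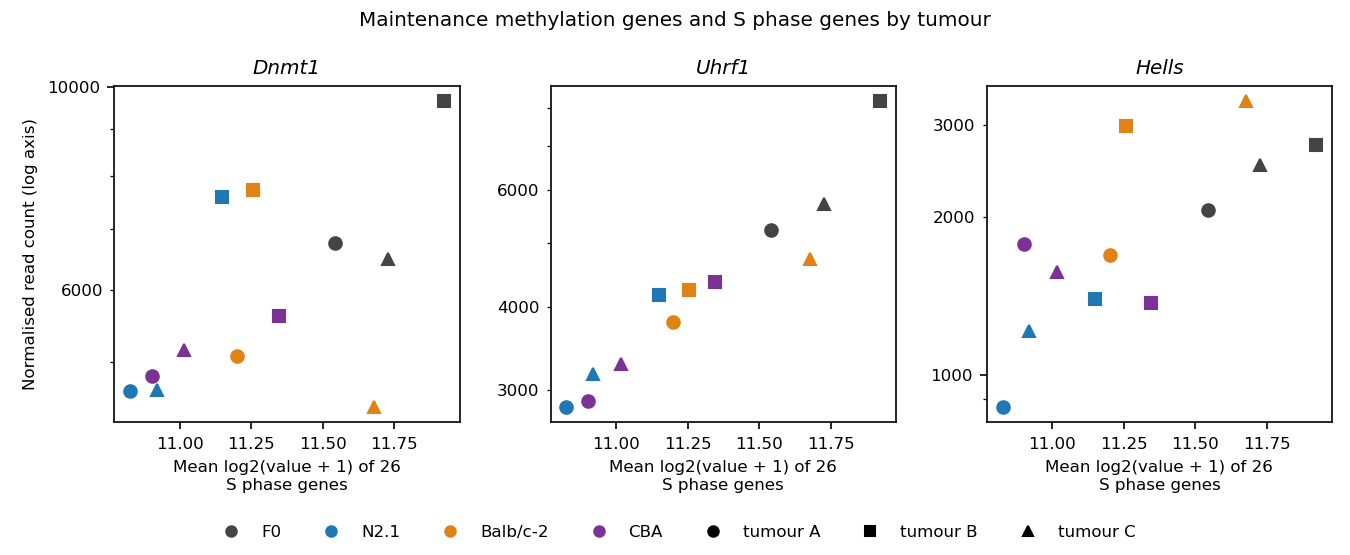
Normalised read count (log axis) of Dnmt1, Uhrf1 and Hells against the mean log2(value + 1) of 26 S phase genes, one point per tumour; colours are passages and shapes are tumours. Uhrf1 climbs with the list from N2.1 A (10.83) to F0 B (11.92), while for Dnmt1 the tumour Balb/c-2 C lies low at 11.68.

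Sequences just upstream of the starts of these genes were read for words bound by E2F, the factor family that drives S phase genes. The words searched were TTTCCCGC, TTTCGCGC, TTTGCCGC and TTTGGCGC on both strands, in the 250 bases before each RefSeq start (build GRCm38.p6, the same coordinates as mm10). All 9 members matched the RefSeq table, with 16 starts among them. The 3 windows with a word belong to the 3 maintenance genes and are shown for that reason, each 5′ to 3′ on the gene's strand with the word in capitals.
Dnmt1: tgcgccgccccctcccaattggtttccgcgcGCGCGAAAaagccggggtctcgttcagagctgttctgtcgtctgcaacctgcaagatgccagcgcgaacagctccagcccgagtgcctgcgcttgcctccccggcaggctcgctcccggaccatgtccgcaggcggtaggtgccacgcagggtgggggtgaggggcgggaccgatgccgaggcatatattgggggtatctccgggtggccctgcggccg
Uhrf1: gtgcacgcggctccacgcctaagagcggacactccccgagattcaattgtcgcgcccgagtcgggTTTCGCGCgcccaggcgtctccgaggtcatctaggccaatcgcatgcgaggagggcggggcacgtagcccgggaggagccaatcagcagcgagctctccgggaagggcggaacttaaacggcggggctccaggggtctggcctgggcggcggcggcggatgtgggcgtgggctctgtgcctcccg
Hells: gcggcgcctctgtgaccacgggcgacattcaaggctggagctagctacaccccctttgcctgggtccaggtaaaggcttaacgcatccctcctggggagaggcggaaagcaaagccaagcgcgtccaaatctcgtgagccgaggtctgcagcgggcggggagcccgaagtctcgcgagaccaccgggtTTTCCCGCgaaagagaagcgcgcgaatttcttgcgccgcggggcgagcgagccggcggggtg
The Dnmt1 window is chr9:20952624-20952873 (minus strand), before a start 7265 bases inside the outermost annotated start of the gene, and its word GCGCGAAA is TTTCGCGC on the other strand. The Uhrf1 window is chr17:56304063-56304312 (plus strand), before a start 992 bases inside the outermost start, and the Hells window is chr19:38930740-38930989 (plus strand), before a start 75 bases inside it. The words lie 219 to 212, 185 to 178 and 62 to 55 bases before the start. Among all 32851 windows, 1.86% hold such a word, as do 3 of the 16 member windows. Counted by gene, 2.16% of 27025 genes have a word in any window, beside 3 of the 9 members and 6 of 22 matched genes of the S phase list. The windows nearest the outermost starts of Dnmt1 and Uhrf1 hold none. Each word contains a CpG, so windows rich in CpG have more chances of a match: the 3 windows hold 26, 30 and 28 CpGs, and the median window holds 6. A match describes the letters and does not show a bound site. The windows of Dnmt3a, Dnmt3b, Dnmt3l, Tet1, Tet2 and Tet3 hold none of these 4 words.

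In the later passages, Uhrf1 had 3795, 4241 and 4718 in the Balb/c-2 tumours A to C, and 2882, 4370 and 3281 in the CBA tumours A to C. All 9 tumours after F0 were below all 3 F0 tumours in Uhrf1. Against F0, its log2 change was -0.56 ± 0.24 in Balb/c-2 (limma adjusted p = 0.237) and -0.86 ± 0.24 in CBA (adjusted p = 0.0719), and neither was called.

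Hells had 1691, 2984 and 3325 in the Balb/c-2 tumours A to C, and 1778, 1371 and 1574 in the CBA tumours A to C. Balb/c-2 B and C were the highest of all 12 tumours, and all 3 Balb/c-2 tumours lay above all 3 N2.1 tumours. Balb/c-2 against N2.1 gave a log2 change of 1.17 ± 0.28 for Hells (limma adjusted p = 0.0548), just outside the threshold, and edgeR and DESeq2 both called it.

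Dnmt1 had 5082, 7723 and 4467 in the Balb/c-2 tumours A to C, and 4831, 5614 and 5160 in the CBA tumours A to C. Passage means ran from F0 (7630) over Balb/c-2 (5758) and N2.1 (5633) to CBA (5202), and each neighbouring pair in that order overlapped. CBA lay wholly below F0, yet the log2 change of -0.53 ± 0.27 was not called (limma adjusted p = 0.331).

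In the 5 further comparisons no member passed the threshold in limma. In CBA against F0, 0 of 9 members and 5.04% of all genes were called, with 3 members at an unadjusted p under 0.05, 0 called by edgeR and 1 by DESeq2. CBA was wholly below F0 in 5 members (Dnmt1, Dnmt3b, Uhrf1, Tet3 and Hells), beside 29.5% of all genes without overlap, and the members' median log2 change was -0.63 beside -0.08 for all genes. No flow cell held both CBA and F0 tumours, and with the flow cell as a term in limma, which Balb/c-2 allows, the count was again 0.

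In Balb/c-2 against F0, 0 of 9 members and 3.51% of all genes were called, with 2 members at an unadjusted p under 0.05, 0 called by edgeR and 2 (Dnmt3l and Tet1) by DESeq2. In Balb/c-2 against N2.1 the count was 0 of 9 beside 2.32% of all genes, with 3 at an unadjusted p under 0.05 and 1 (Hells) by each of edgeR and DESeq2. Without Balb/c-2 A, limma called Hells there, and without Balb/c-2 B it called Dnmt3a. In CBA against N2.1 it was 0 of 9 beside 7.15%, with 1 at an unadjusted p under 0.05, 0 by edgeR and 1 (Tet1) by DESeq2. In CBA against Balb/c-2 it was 0 of 9 beside 1.04%, with 1 at an unadjusted p under 0.05 and 0 by edgeR and DESeq2.

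Among the genes that place new methylation, Dnmt3a, the main such enzyme of adult tissues (ENSMUSG00000020661, chr12:3806007-3914443, plus strand), was highest in N2.1. It had 1238, 1963 and 1123 in F0 A, B and C, 1842, 2425 and 2075 in N2.1, 1124, 1677 and 489 in Balb/c-2, and 1461, 1519 and 1683 in CBA. N2.1 lay wholly above Balb/c-2 and CBA, and overlapped F0 through F0 B. The log2 change in Balb/c-2 against N2.1 was -1.11 ± 0.38 (limma adjusted p = 0.179), in which Balb/c-2 C was far the lowest tumour.

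Dnmt3b, which acts early in development (ENSMUSG00000027478, chr2:153649450-153687730, plus strand), had 105, 141 and 73.2 in F0 A, B and C, 56.8, 80.5 and 65.9 in N2.1, 133, 93.3 and 68.6 in Balb/c-2, and 63.2, 58.1 and 39.8 in CBA. All 3 CBA tumours lay below all 3 tumours of F0 and of Balb/c-2. The log2 change in CBA against F0 was -0.95 ± 0.38 (limma adjusted p = 0.202) and that in CBA against Balb/c-2 was -0.84 ± 0.38 (adjusted p = 0.423).

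Dnmt3l (ENSMUSG00000000730, chr10:78041947-78063622, plus strand) had a higher mean in each later passage than in F0. It had 21.1, 3.82 and 17.3 in F0 A, B and C, 83.3, 17.3 and 65.9 in N2.1, 75.2, 119 and 95.2 in Balb/c-2, and 34.3, 170 and 16.2 in CBA. Balb/c-2 lay wholly above F0, while N2.1 B and CBA C were at the F0 level. In reads these are small numbers, 4 to 19 in F0 and at most 143 in any tumour. The log2 change was 2.94 ± 0.88 in Balb/c-2 against F0 (limma adjusted p = 0.0916), 1.91 ± 0.88 in N2.1 against F0 (adjusted p = 0.219) and 1.91 ± 0.88 in CBA against F0 (adjusted p = 0.275).

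Neutrophil markers moved with Dnmt3l in part. The mean log2 level of 5 markers was 5.67, 3.89 and 4.85 in F0 A, B and C, 8.51, 5.89 and 8.16 in N2.1, 7.29, 7.23 and 6.66 in Balb/c-2, and 3.85, 5.01 and 3.35 in CBA. Summed, they lay between 474 and 851 in F0, at 2362 to 4324 in N2.1, at 1493 to 3166 in Balb/c-2 and at 580 to 893 in CBA, and the defining marker Ly6g was at 0 in 8 of the 12 tumours. CBA B, the tumour highest in Dnmt3l, had a low neutrophil level and a summed macrophage marker level of 153471, against 55945 and 58957 in CBA A and C. Single macrophage markers differed in direction there. C1qa, C1qb, C1qc and Csf1r were higher in CBA B than in CBA A and C, and Cd68 lay between. Adgre1 was lower (2336, against 3251 and 3445 in CBA A and C), as was Mrc1 (4594, against 5065 and 5754). The part of these cells in the Dnmt3l values was not tested.

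Of the erasers, Tet1 did not stay at its N2.1 low. It had 49.6, 29.9 and 34.3 in the Balb/c-2 tumours A to C, and 49.6, 56.9 and 95.9 in the CBA tumours A to C. Both groups lay wholly above N2.1, and both overlapped F0. The log2 change was 2.68 ± 0.76 in CBA against N2.1 (limma adjusted p = 0.0577) and 1.89 ± 0.76 in Balb/c-2 against N2.1 (adjusted p = 0.246), neither of them called.

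Tet2 (ENSMUSG00000040943, chr3:133463679-133545139, minus strand), an eraser often mutated in blood cancers, had 558, 1025 and 416 in F0 A, B and C, 457, 1323 and 458 in N2.1, 438, 1163 and 282 in Balb/c-2, and 818, 325 and 987 in CBA. The spread lay within passages and not between them: passage means were between 628 and 746. B was the high tumour in F0, N2.1 and Balb/c-2, and the low tumour in CBA.

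Tet3 (ENSMUSG00000034832, chr6:83362373-83459084, minus strand), the eraser active in the fertilised egg, had 1653, 2945 and 1537 in F0 A, B and C, 1114, 2924 and 1348 in N2.1, 1178, 3176 and 1346 in Balb/c-2, and 1277, 952 and 1338 in CBA. It followed the pattern of Tet2 across tumours. Neither Tet2 nor Tet3 was called by limma in any of the 6 comparisons, and CBA lay wholly below F0 in Tet3 (log2 change -0.73 ± 0.44, adjusted p = 0.428).

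The B tumours of F0, N2.1 and Balb/c-2 were also the highest of their passage in the signal of repeats in introns. Signal from 391127 such copies, of which 62 lie in Dnmt1, 64 in Tet2 and 46 in Tet3, was 0.592, 0.693 and 0.525% of the gene signal in F0 A, B and C, 0.588, 0.837 and 0.519% in N2.1, 1.19, 1.64 and 0.4999% in Balb/c-2, and 0.982, 0.524 and 0.884% in CBA. In F0, N2.1 and Balb/c-2 the B tumour was highest in this share, in Tet2, in Tet3 and in Dnmt1, and in CBA the B tumour was lowest in the share, in Tet2 and in Tet3 but highest in Dnmt1. Across passages the order differed: Balb/c-2 A, at 1.19%, was above F0 B and N2.1 B in the share but had only 438 in Tet2 and 1178 in Tet3. This measure was chosen after the values were seen, and its part in the levels of Tet2 and Tet3 was not tested.

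**Figure D4:**
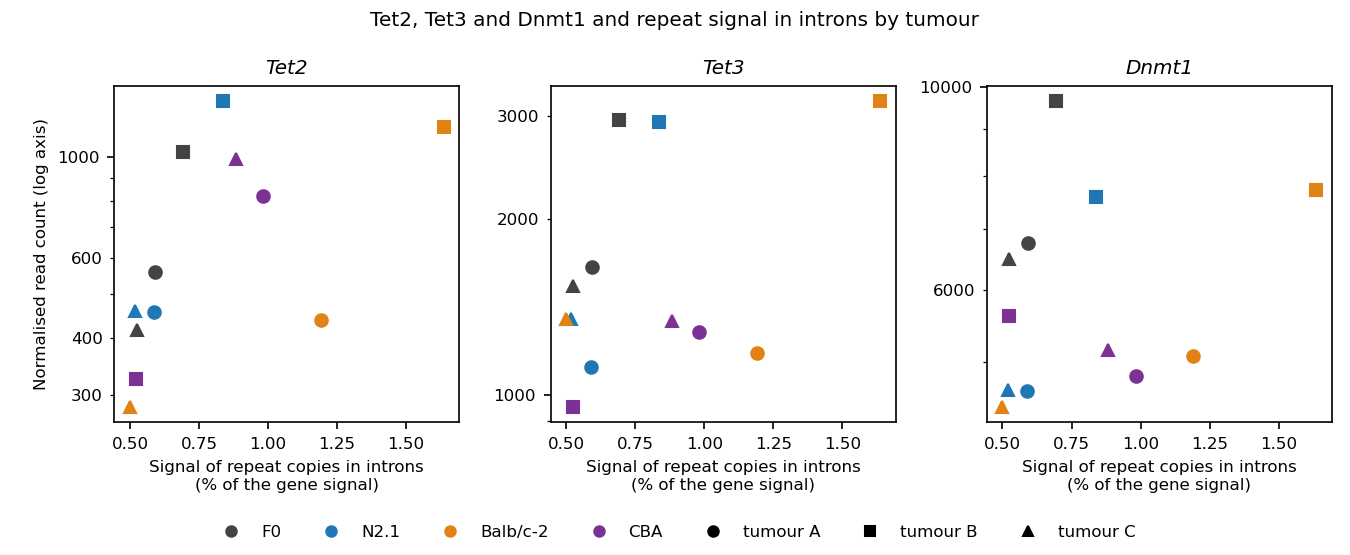
Normalised read count (log axis) of Tet2, Tet3 and Dnmt1 against the signal of repeat copies in introns as a percentage of the gene signal, one point per tumour; colours are passages and shapes are tumours. The B tumours of F0, N2.1 and Balb/c-2 (0.693, 0.837 and 1.64%) lie at the top of all 3 panels, and CBA B (0.524%) lies near the bottom for Tet2 and Tet3. Balb/c-2 A lies low for Tet2 and Tet3 at a high share (1.19%).

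The genes whose levels over the 12 tumours were most like each member are given as a description, by Pearson r of log2(value + 1) among 14265 named genes. Uhrf1 was closest to Nt5c2 (r = 0.98), to Mybl2, a transcription factor of the cell cycle (r = 0.97), and to Timeless, a replication fork protein (r = 0.96). Hells was closest to Dtl, an adaptor that marks the licensing factor Cdt1 for degradation (r = 0.95), Pdss1 and Tmpo (r = 0.94 each), and Dnmt1 to Yeats2, Ticrr and Brca1 (r = 0.96 each). Tet2 was closest to Clasp1 (r = 0.98), Nktr and Aff4 (r = 0.97 each), and Tet3 to Zfp407 (r = 0.98), Dock11 and Ttll4 (r = 0.97 each). Dnmt3l was closest to Pla2g2e, a secreted phospholipase (r = 0.96), Osm, the cytokine oncostatin M (r = 0.94), and Csrnp1 (r = 0.93). Dnmt3a was closest to Alg12, Mark4 and Itpkc (r between 0.95 and 0.96), Dnmt3b to Fzd6, Rasgrp3 and Nostrin (r = 0.87 each), and Tet1 to Fzd3, Kif26b and Cplx2 (r between 0.93 and 0.96). The tumours shared library depth differences and a passage, so these r values describe these 12 libraries.

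Genes that work around the 9 members were followed in lists. Of 12 partners of maintenance methylation, 11 were tested and 1 was called in N2.1 against F0: Cdca7, which recruits HELLS to chromatin, fell to 1059 ± 102 in N2.1, against 2562 ± 349 in F0 (log2 change -1.27 ± 0.33, limma adjusted p = 0.0387). Of 12 genes that guide methylation or silencing, 1 was called there: Zfp57, a zinc finger protein that keeps methylation at imprinted loci, had 52.4 ± 12.1 in N2.1 and 161 ± 13.9 in F0 (log2 change -1.63 ± 0.40, adjusted p = 0.0320). Of 14 tested genes that supply or use methyl donors and 2-oxoglutarate, 1 was called there: Idh1, which makes 2-oxoglutarate, had 2297 ± 270 in N2.1 and 5140 ± 634 in F0 (log2 change -1.16 ± 0.20, adjusted p = 0.00642). These counts are close to the 7.91% of all genes called in this comparison. The median log2 change of these 3 lists was -0.25, -0.25 and -0.31, beside -0.02 for all genes. In the 5 further comparisons these 3 lists had no gene called by limma, with 0 to 5 genes a list at an unadjusted p under 0.05, 0 called by edgeR and 0 to 3 by DESeq2.

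Of 17 genes of active demethylation and base excision, limma called 3 in N2.1 against F0 (2 higher, 1 lower), beside 7.91% of all genes. It called 2 in CBA against F0 (both higher), beside 5.04%, and 1 in CBA against N2.1 (higher), beside 7.15%. Tdg, the glycosylase that removes oxidised methylcytosine, fell in N2.1 (912, 1269 and 1231 in the N2.1 tumours A to C, against 2487, 2482 and 2881 in the F0 tumours A to C), with a log2 change of -1.21 ± 0.20 (limma adjusted p = 0.00492). It was called higher in CBA against N2.1, with 1980 ± 80.7 in CBA and 1137 ± 196 in N2.1 (log2 change 0.81 ± 0.20, adjusted p = 0.0299). Gadd45a, a stress gene also linked to demethylation, rose in N2.1 against F0 (log2 change 1.55 ± 0.43, adjusted p = 0.0489) and in CBA against F0 (2.55 ± 0.43, adjusted p = 0.00593). The deaminase Apobec1 rose in N2.1 against F0 (1.45 ± 0.39, adjusted p = 0.0424), and Apobec3, a restriction factor against retroviruses, rose in CBA against F0 (1.23 ± 0.32, adjusted p = 0.0494). In the 3 comparisons of this list without a call, 5, 4 and 2 genes had an unadjusted p under 0.05 (Balb/c-2 against F0, then against N2.1, and CBA set against Balb/c-2), edgeR called 0 and DESeq2 called 3, 1 and 1.

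These calls differed in how far they held. In N2.1 against F0, Tdg and Idh1 were called under all 20 alternative settings, while Cdca7 missed the threshold in 9, Zfp57 in 7, Apobec1 in 11 and Gadd45a in 16. In CBA against F0, Gadd45a missed it in 2 of 19 and Apobec3 in 13, and in CBA against N2.1 Tdg missed it in 8.

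The 9 methyl-CpG readers had 0 calls in limma, edgeR and DESeq2 in all 6 comparisons, with at most 1 at an unadjusted p under 0.05. Mbd3, a subunit of the NuRD complex, had 6237, 4772 and 5683 in the N2.1 tumours A to C, against 7922, 7477 and 8419 in the F0 tumours A to C. Mbd2 went the other way, with 6017, 5139 and 6170 in N2.1, against 4562, 3854 and 4350 in F0. The reader list's median log2 change in N2.1 against F0 was 0.07.

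Rhox5, which encodes a homeodomain protein of testis and placenta and is silenced by methylation in other tissues (ENSMUSG00000095180, chrX:37804842-37808876, plus strand), split the tumours into 2 sets of 6. It had 42.2, 19.085 and 47.2 in F0 A, B and C, 0, 6.11 and 11.7 in N2.1, 10017, 2507 and 9505 in Balb/c-2, and 4668, 18827 and 4894 in CBA. Every Balb/c-2 and CBA tumour was far above every F0 and N2.1 tumour. The log2 change was 7.48 ± 0.91 in Balb/c-2 against F0 (limma adjusted p = 0.00117) and 7.76 ± 0.91 in CBA against F0 (adjusted p = 0.000639), and with the flow cell as a term the change in CBA was 8.80 (adjusted p = 0.0588). The largest gap between neighbouring tumours was 5.70 of a log2 range of 14.2.

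In those same comparisons limma called 0 of the 9 writers and erasers, while DESeq2 called Dnmt3l (adjusted p = 0.0192) and Tet1 (adjusted p = 0.0386) in Balb/c-2 and Uhrf1 (adjusted p = 0.0154) in CBA. Among 9 tested of 18 germline genes of this kind in the table, Rhox5 and Morc1, a factor of retrotransposon silencing in male germ cells, rose in Balb/c-2 and in CBA against F0. Morc1 had 576, 884 and 1058 in the Balb/c-2 tumours A to C and 993, 682 and 1040 in CBA, against 7.77, 2.86 and 3.85 in F0. Hormad1, a meiotic gene, had 269, 455 and 715 in the N2.1 tumours A to C and between 0 and 4.96 in every other tumour.

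Because Rhox5 levels fall into separate sets, no correlation over all 12 tumours is given. Within the lower set (F0 and N2.1) and the higher set (Balb/c-2 and CBA), 18 relations were computed, each over 6 tumours. In the lower set Hells had the highest r, 0.86 (exact permutation p = 0.0208, two-sided), with a Spearman rho of 0.77 (exact permutation p = 0.103). Without N2.1 A and F0 C, the tumours farthest from the median, r was 0.63. All F0 tumours lay above all N2.1 tumours in both Rhox5 and Hells, so this r includes the difference between the 2 passages. With a mean per passage, the slope of Hells on log2 Rhox5 was 0.01 ± 0.10 (SE, limma adjusted p = 0.977). In the higher set Tet2 had r = -0.90 (exact permutation p = 0.0292) and rho = -0.77 (exact permutation p = 0.103), and r = -0.92 without CBA B and Balb/c-2 B. Tet3 had r = -0.84 there (exact permutation p = 0.0264) and rho = -0.77 (exact permutation p = 0.103). Without those 2 tumours its r was weaker, at -0.38. Each r without 2 tumours, also those of Hells and Tet2, covers only 4 tumours, too few to say how far a relation rests on those left out. With a mean per passage, the slope on log2 Rhox5 was -0.30 ± 0.19 for Tet2 (SE, limma adjusted p = 0.751). For Tet3 it was -0.13 ± 0.15 (adjusted p = 0.772).

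The slope of each gene on log2 Rhox5 with a mean per passage was then fitted by limma over 17490 genes. It called 0 of 9 members and 0.0% of all genes, with 494 genes at an unadjusted p under 0.05. Leaving out N2.1 A, the tumour with 0 Rhox5 reads, changed this: 6375 of 17490 genes were called, and 2 of 9 members, a smaller share. These members were Tet2 (slope -0.88, adjusted p = 0.000679) and Tet3 (slope -0.54, adjusted p = 0.00367).

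**Figure D5:**
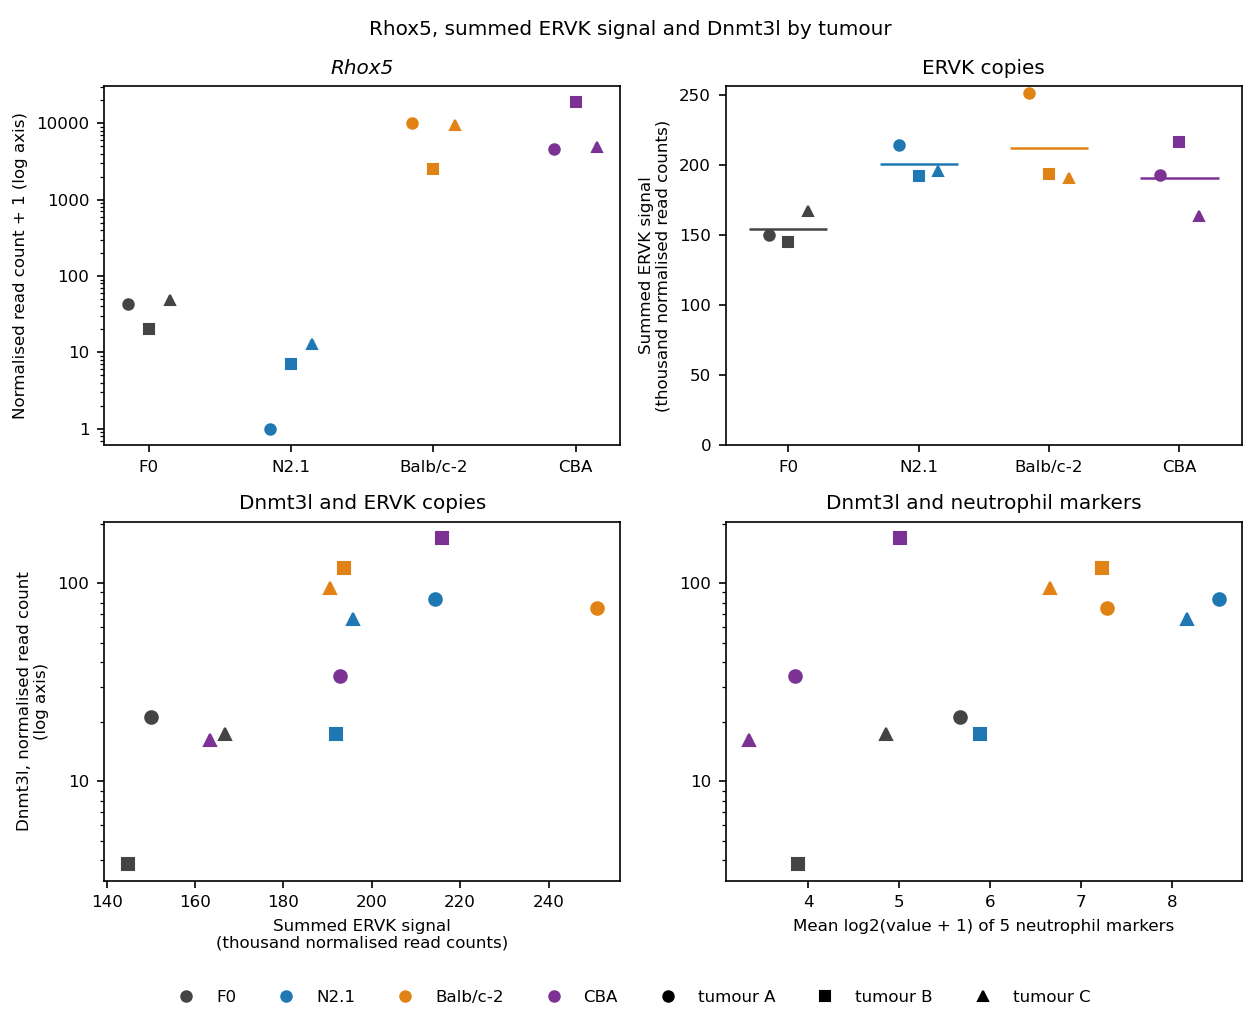
Top, Rhox5 (normalised read count + 1, log axis) and the summed signal of ERVK copies (in units of 1000 normalised read counts, axis from 0, lines are means) in each tumour; bottom, Dnmt3l (log axis) against the ERVK sum and against the mean log2(value + 1) of 5 neutrophil markers. Rhox5 lies between 0 and 47.2 in F0 and N2.1 and between 2507 and 18827 in Balb/c-2 and CBA, whereas the ERVK sum differs by much less, and Dnmt3l is lowest in F0 B (3.82), where the ERVK sum is lowest too.

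ERVK, the class that holds the intracisternal A particles and related mouse retroviruses, was summed over 45880 copies in each tumour. The sum was 150077, 144714 and 166736 normalised read counts in F0 A, B and C, 214403, 191798 and 195836 in N2.1, 250943, 193715 and 190471 in Balb/c-2, and 192699, 215932 and 163280 in CBA. All N2.1 and Balb/c-2 tumours lay above all F0 tumours, and CBA C lay among the F0 tumours. Passage means were 153842 ± 11484 in F0, 200679 ± 12056 in N2.1, 211710 ± 34016 in Balb/c-2 and 190637 ± 26387 in CBA (SD, n = 3 each). Balb/c-2 stood highest through tumour A, in which the summed B and plasma cell markers were 30272, against 131 to 991 in every other tumour, and their part in its ERVK sum was not tested. Over the 1698 copies that passed the filter on low values, the means were 137584 in F0, 180684 in N2.1, 168532 in Balb/c-2 and 168663 in CBA, so N2.1 and not Balb/c-2 was highest. An exact permutation test over all 15400 partitions into 4 groups of 3 gave p = 0.0440.

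That p was between 0.0508 and 0.156 when F0 A, F0 B, N2.1 A, B or C, Balb/c-2 A or B, or CBA A was left out, and 0.107 for the share of the total signal in place of the sum. Between pairs of passages the log2 difference was 0.38 in N2.1 against F0 and 0.45 in Balb/c-2 against F0, each with an exact permutation p of 0.1, the smallest that 3 against 3 tumours can give, and 0.30 in CBA against F0 (exact permutation p = 0.2).

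With the passages pooled, Dnmt3l was the member of the 9 that followed the ERVK sum most closely. Over the 12 tumours its r was 0.78 (permutation p = 0.00241, two-sided) and its rho 0.73 (permutation p = 0.00796), the smallest p among 9 relations computed. Without F0 B and Balb/c-2 A, r was 0.76, and within the 7 tumours of the first flow cell it was 0.83 (exact permutation p = 0.0151). The second flow cell held 5 tumours, too few for such a value. Uhrf1 had r = -0.60 (permutation p = 0.0406) and rho = -0.58 (permutation p = 0.0516), with r = -0.46 without those 2 tumours and r = -0.80 in the first flow cell (exact permutation p = 0.0341). Tet1 and Dnmt1 had r = -0.56 and -0.55, Tet3 and Hells -0.46 and -0.44, Tet2 -0.37, and Dnmt3b and Dnmt3a -0.09 and -0.07.

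Fitted over all 17491 genes, these relations did not pass. With no passage means limma called 0 of 9 members beside 1.08% of all genes, and Dnmt3l had a slope of 5.18 ± 1.24 log2 units per doubling of the sum (SE, adjusted p = 0.0533). With passage means it called 0 of 9 members beside 0.0% of all genes, 3181 of which had an unadjusted p under 0.05, and Dnmt3l had a slope of 3.82 ± 2.08 (adjusted p = 0.333). In that fit Hells (slope -1.49 ± 0.59, adjusted p = 0.253), Tet3 (adjusted p = 0.282) and Tet2 (adjusted p = 0.319) came before Dnmt3l. With the flow cell in place of passage means Dnmt3l was called (slope 4.95, adjusted p = 0.0409), beside 538 of 17491 genes. Leaving out Balb/c-2 C, with passage means, 4282 of 17491 genes were called, and 2 of 9 members, a smaller share. These members were Tet2 (slope -4.20, adjusted p = 0.0210) and Tet3 (slope -2.87, adjusted p = 0.0396).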

How the data were processed

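RNA from bulk tumours was measured in 12 libraries, 3 for each of 4 passages. The deposited table holds normalised read counts (signal) per gene and per repeat copy, made by the authors. The submitters' processing notes name the build mm10 with featureCounts 1.5.0-p3, StringTie 1.3.3b and HISAT2 2.0.5. Not given in the sources used here are the normalising tool, the treatment of multiply mapped reads and the strand setting. Whole reads could be recovered from the steps in the deposited values (all within 0.1 read), giving 34721735 to 59404254 reads per tumour.

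Symbols came from GENCODE M21 for 34364 of 34436 gene IDs. Genes at 10 or more in at least 3 tumours (17491) were fitted as log2(value + 1) with limma 3.58.1 in R 4.3.3, with a mean per passage over all 12 tumours (8 residual degrees of freedom), trended and robust moderation, and Benjamini-Hochberg adjustment over all genes. Fold changes on this scale understate those of low genes. edgeR 4.0.16 and DESeq2 1.42.0 on the recovered reads were alternatives, as were other pseudocounts, filters, scalings, flow cell terms, the replicate block and leaving out each tumour. Correlations and exact or 100000-resample permutation tests used Python 3.11.15, SciPy 1.17.1, NumPy 2.4.6 and pandas 2.3.3. The fits were tested on simulated data. Named genes were the 9 members, Rhox5, for each other list up to 3 called genes per comparison and direction with the largest log2 change (the most abundant gene where none was called), and for each member the 3 genes of highest r, leaving out predicted genes and pseudogenes. Marker genes, Mcm6 and Mbd2 were named after their values were seen. The members and lists were chosen with earlier results of these data known.

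The tumour letters were checked for pairing by the correlation of same-letter deviations from the passage means. It was 0.181 to 0.478 in N2.1 against F0, over 0.1 for every same-letter pair, and was not so in the other 5 comparisons, where it lay between -0.407 and 0.430. Among different letters, F0 C with N2.1 A had 0.234 and F0 A with N2.1 C had 0.126. Pairs of a B tumour with another letter were negative in N2.1 against F0. Pairing by letter was thus not shown for the A and C tumours. Asz1, Mov10l1, Tdrd1 and Rpl10l of the germline list were not analysed here.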

Additional observations from a re-analysis of the deposited data

How the results depend on the processing

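Of 1062 member values under alternatives, 1026 stayed on their side of the threshold, 58 of them uncalled values that changed sign, 19 gained a call, 17 lost one and no called value reversed. The number of members called in N2.1 against F0 was 0 to 3 when 1 tumour was left out, 1 (Tet1) with no filter on low values and 1 with no trend or robust moderation. With the replicate block over 12 tumours it was 3, and with the block in the 2 passages alone 6. In Balb/c-2 against F0 it was 2 with DESeq2. In CBA against F0 it was 1 (Uhrf1) with DESeq2, quantile normalization and the replicate block. In Balb/c-2 against N2.1 it was 1 (Hells) with edgeR, DESeq2, quantile normalization, TMM and the block in 2 passages, and 0 to 1 with 1 tumour left out. In CBA against N2.1 it was 1 (Tet1) with DESeq2, quantile normalization, TMM and the 2 passages alone. With 1 tumour left out, the slope on Rhox5 called 0 to 2 members and that on ERVK 0 to 2, where the fits with 2 called 6375 and 4282 of all genes. The slope on ERVK called 1 member with the flow cell in place of passage means, beside 538 of 17491 genes. The ERVK test over passages gave an exact permutation p of 0.107 as a share of signal and 0.0265 to 0.156 with 1 tumour left out. The cause of these changes was not tested.

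Over all genes, N2.1 against F0 had 1383 calls (875 higher, 508 lower), 2663 with DESeq2, 2615 in the 2 passages alone, 5411 with the block there, and 770 higher and 737 lower with quantile normalization. CBA against N2.1 had 365 higher and 885 lower, and 551 and 670 with quantile normalization. That scaling moved the median of all genes in N2.1 against F0 to -0.12, and DESeq2 moved that in Balb/c-2 against F0 to 0.11. Tet1 in N2.1 and Dnmt3l in F0 rest on at most 21 reads a tumour, which limits their precision.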
